A study of Bos taurus with 72 samples.

Results

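The complete medium (POS) was compared with the 10 media that held only 1 essential amino acid (EAA), in 66 of the 72 libraries of the series. These were the 6 libraries of POS and the 60 of the single-EAA treatments, named Arg, His, Ile, Leu, Lys, Met, Phe, Thr, Trp and Val after the EAA that was added. Members were chosen by the treatment in their labels. A gene entered with a mean of at least 1 FPKM (reads on the gene per unit of its length and of a factor for the library), which 12121 of the 29550 genes in the table passed. For every gene, the median of log2(FPKM + 1) over the 6 libraries stood for a treatment, so that each of the 10 counted once. The question was which genes no single EAA brought to the POS level, and which ones some single EAA did.

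All libraries came from primary bovine mammary epithelial cells (BMECs) of wild-type genotype, grown from the udder tissue of healthy dairy cows. The cells were deprived of serum overnight and then kept in their treatment medium for 6 h. POS was complete DMEM-F12. The base of the other media was the same DMEM-F12 without any EAA, which alone was the negative control (NEG), and each single-EAA medium was NEG with that EAA brought to its concentration in POS. Before the treatment, every culture was grown with insulin, prolactin, hydrocortisone, transferrin and epidermal growth factor. The study calls the replicates of a treatment biological ones, and the sources do not say whether they came from separate cows or cultures, so the p-values measure the spread between these libraries.

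EAAs are the amino acids that an animal cannot make, or cannot make in sufficient amounts, as with arginine, and that have to be supplied. Cells read their supply through at least a pair of known routes. The kinase complex mTORC1 is activated by amino acids, with dedicated sensors for leucine, arginine and a methionine product, and promotes translation and growth. The kinase GCN2 senses uncharged transfer RNA, slows translation and raises the transcription factor ATF4, whose targets include amino acid transporters and synthetases. In mammary epithelial cells, EAAs are the building blocks of the caseins and other milk proteins.

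The table lists genes by identifier without symbols, and 0 of its identifiers were found in the bovine reference table used here. The genes of these routes, the milk protein genes and the epithelial markers were therefore not examined, and the labelled cell type could not be checked against its markers. Genes are described below by class, with 4 named by identifier and the others by the gene length recovered from the FPKM. Reads on genes ranged from 12006108 to 18602233 in the 66 libraries, with a median of 15704611. Leu_1, Arg_4 and POS_4 stood apart, with 10495, 11838 and 13537 genes above 0, against 15211 to 18393 in the other 63 libraries. The main counts were repeated without them.

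POS differed from every single-EAA medium in 1335 genes or more, and the number varied between the EAAs. Calls were made by limma on log2(FPKM + 1) at a Benjamini-Hochberg adjusted p under 0.05, in 10 fits of 12 libraries that share the 6 POS libraries. The percentages beside the counts are shares of the 12121 genes tested. The fewest genes differed between POS and Arg, of which 567 were higher (4.68%) and 768 lower (6.34%), 11% in all. Between POS and Trp, 1191 genes were higher (9.83%) and 1460 lower (12%), 21.9% in all. For Met, 1242 genes were higher (10.2%) and 1412 lower (11.6%), 21.9% in all. For Leu, 1397 genes were higher (11.5%) and 1360 lower (11.2%), 22.7% in all. The next were Ile, where 1529 genes were higher (12.6%) and 1648 lower (13.6%), 26.2% in all, and Lys, where 1526 genes were higher (12.6%) and 1735 lower (14.3%), 26.9% in all. His and Val had nearly the same number of calls. For His, 1711 genes were higher (14.1%) and 1754 lower (14.5%), 28.6% in all. For Val, 1740 genes were higher (14.4%) and 1726 lower (14.2%), 28.6% in all. The most calls were found for Phe, where 1940 genes were higher (16%) and 2267 lower (18.7%), 34.7% in all, and Thr, where 2158 genes were higher (17.8%) and 2449 lower (20.2%), 38% in all. Between POS and NEG, 3969 genes (32.7%) differed, fewer than between POS and Phe or Thr.

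**Figure D1:**
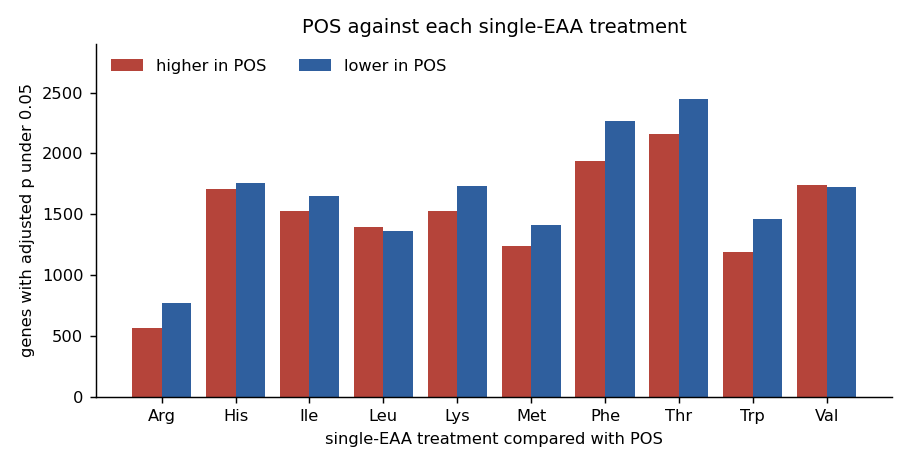
Number of genes (y axis) with an adjusted p under 0.05 by limma in POS against each single-EAA treatment (x axis), 6 libraries against 6, with red bars for genes higher and blue bars for genes lower in POS. Arg has the lowest bars (567 and 768) and Thr the highest (2158 and 2449).

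The number of calls depends on the spread between libraries as well as on the distance from POS. The root mean square of the differences between POS and treatment medians, which uses no test, was smallest for Arg with 0.494 on the log2 scale. It was 0.518 for Trp, 0.549 for Met, 0.555 for Lys, 0.568 for Ile, 0.573 for Phe, 0.575 for His and 0.608 for Thr. Leu with 0.626 and Val with 0.681 lay farther from POS than NEG did with 0.61. Arg was thus the nearest to POS by both measures, while Thr had the most calls in the separate fits and Val the largest distance. Arg holds Arg_4 and Leu holds Leu_1, both with few genes above 0. Without Arg_4 the genes called in POS against Arg were 2112, and without POS_4 they were 2011, both still the lowest number among the 10 treatments. With the replicate number as a block, however, Leu had fewer calls (1456) than Arg (1721), and His the most (4482). Leu had the most calls in 1 fit of the 66 libraries (5841 against 5158 for Thr) and without Leu_1, Arg_4 and POS_4 (6764 against 6261), as well as at an unadjusted p under 0.05 with a fold over 2 (1209 against 1030), and Val had the most with sample weights (9197 against 7633). Without POS_4, the calls also rose by more than 1.5 times for Leu (4295), Trp (4475), Met (4694), Ile (4970), Lys (5224), His (5959) and Val (6070).

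Against the mean of the 10 treatments, 2684 genes were higher in POS (22.1% of the genes tested) and 2550 were lower (21.0%), by limma in 1 fit of the 66 libraries. Under a scaling by total reads, 57.5% of the called genes were higher in POS, against 51.3% under the deposited scaling. A change of more than 2-fold beside the adjusted p left 210 genes higher (1.73%) and 423 lower (3.49%). Large differences were thus more often to the lower side in POS, while differences of any size were divided almost evenly.

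The POS median lay above all 10 treatment medians in 2449 genes (20.2%), below all of them in 2319 (19.1%) and within their range in 7353 (60.7%). Of these, 268 genes (2.21% of the genes tested) were also called higher in POS in all 10 comparisons, and 415 (3.42%) were called lower in all 10. Under a scaling by total reads these were 319 higher and 359 lower, a smaller excess of lower genes. The 268 and 415 genes are the ones that no single EAA brought to the POS level. They were higher or lower in POS than in NEG as well, by median, in all 268 and all 415. The choice of the classes favours this, since the same POS libraries were used and all 10 media shared the NEG base. The NEG median lay within the range of the 10 single-EAA medians for 212 of the 268 and for 346 of the 415 genes, against 8227 of all 12121 genes tested.

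**Figure D2:**
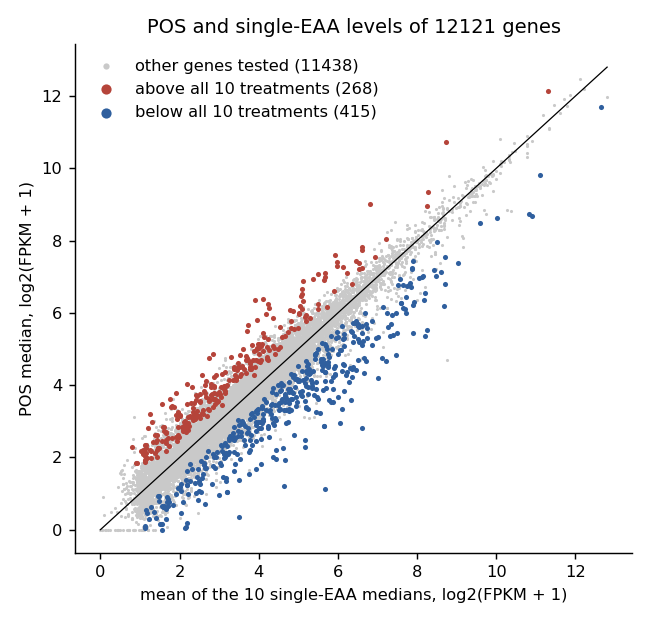
POS median (y axis) against the mean of the 10 single-EAA medians (x axis), both in log2(FPKM + 1), for the 12121 genes tested, with the line of equal levels. The 268 genes above all 10 treatments (red) lie over the line and the 415 genes below all 10 (blue) lie under it, over the whole range of levels.

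The distance that the nearest single EAA left uncovered was moderate in most of these genes. The gap between the POS median and the nearest treatment median had a median of 0.64 on the log2 scale in the 268 higher genes, from 0.26 to 1.82, and was over 1 in 42 of them. In the 415 lower genes it had a median of -0.78, from -0.18 to -4.14, and exceeded 1 in size in 131. In the POS libraries the higher genes had a median of 15.3 FPKM and the lower genes one of 11.3 FPKM, the same as all genes tested. By their mean over all libraries, the medians were 7.7 FPKM in the higher and 26.5 FPKM in the lower genes, against 11.2 FPKM in all genes tested. Recovered lengths had a median of 3110.5 bp in the higher and 2640 bp in the lower genes, against 2342 bp in all genes tested.

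Separation of single libraries was stricter than that of medians. All 6 POS libraries lay above all 60 single-EAA libraries in 138 of the 268 genes, and below all 60 in 239 of the 415. Over all genes tested, such a complete separation was found in 154 genes above (1.27%) and 250 genes below (2.06%). POS_4 was the lowest POS library in 91 of the 268 genes and the highest in 183 of the 415. The share over all genes tested is not given beside these counts, so they do not mark a trait of the classes. Without Leu_1, Arg_4 and POS_4, the remaining libraries did not overlap in 224 of the 268 and in 371 of the 415 genes, and over all genes tested in 495 above (4.08%) and 653 below (5.39%). Both classes were chosen on tests of the same libraries, so these counts only describe them.

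Without POS_4, the genes that no single EAA brought to the POS level rose to 494 higher and 611 lower. They held 261 of the 268 and 410 of the 415 genes, while 7 and 5 genes were lost. With Leu_1 and Arg_4 left out as well, they were 806 and 937. At the limits of an unadjusted p under 0.05 and a fold change over 2 in all 10 comparisons, 50 genes were higher and 140 lower. Just inside the threshold on the higher side was a gene with a largest adjusted p of 0.0499 by limma and a gap of 0.34, and just outside one with 0.0501 and 0.43. On the lower side these were 0.0498 with -0.50, and 0.0512 with -0.78.

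Many genes missed this class through 1 comparison. A POS median beyond all 10 treatments with 9 of the 10 comparisons called was found for 233 higher and 284 lower genes. The comparison that was missing was that with Arg in 157 of the 233 and 167 of the 284, and that with Leu in 37 and 80. Met was missing in 10 and 21 genes, and each of the other 7 treatments in no more than 10. Without POS_4 there were 464 higher and 388 lower such genes, with Arg missing in 348 and 210. With Leu_1 and Arg_4 left out as well there were 376 and 312, with Arg missing in 194 and 105 and Leu in 14 and 28. Over all genes tested, with every library kept, POS against Arg had the fewest calls (11%), beside 22.7% for Leu and 21.9% for Met. The part of this in the counts of missing comparisons was not tested.

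The largest gap to the higher side among the genes with an Ensembl identifier was that of ENSBTAG00000011839, a gene of 5151 bp by its recovered length. Its FPKM in POS_1 to POS_6 were 436, 447, 490, 819, 539 and 558. The single-EAA libraries ran from 78.6 in Thr_5 to 264 in Arg_4, so that no library overlapped with POS, and NEG ran from 88.3 to 110. The treatment medians were highest in Arg (147 FPKM), Met (135 FPKM) and His (127 FPKM) and lowest in Thr (84.4 FPKM). POS was higher than the mean of the 10 by 2.23 on the log2(FPKM + 1) scale (SE 0.11, adjusted p = 9.4e-26 by limma). In the single comparisons the difference ran from 1.77 against Arg to 2.61 against Thr, with adjusted p by limma of at most 0.00025. Even Arg, the nearest medium, left a gap of 1.82. Without Arg_4 the nearest medium was Met, with a gap of 1.93.

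ENSBTAG00000010128, with 1927 bp, was next by gap and was far less abundant. The order of these genes turned when 0.1 in place of 1 was added to the FPKM as a pseudocount. The gap was then 2.15 for ENSBTAG00000010128 and 1.82 for ENSBTAG00000011839. ENSBTAG00000010128 met the minimum of 5 FPKM for named genes only through POS, where it is high. It had between 7.52 and 9.90 FPKM in POS, with a median of 8.19 FPKM. The single-EAA libraries ran from 0 in Leu_1 to 2.44 FPKM in His_3, and NEG from 0.829 to 2.73 FPKM, all below the lowest POS library. The difference from the mean of the 10 was 2.01 (SE 0.13, adjusted p = 5.3e-21 by limma), and 2.63 with the pseudocount of 0.1. Its treatment medians were close together, from 0.980 FPKM in Phe to 1.77 FPKM in Arg, a range that lay on both sides of the NEG median of 1.18 FPKM.

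To the lower side, the largest gap was that of ENSBTAG00000054808, with 1714 bp. This gene met the minimum of 5 FPKM for named genes only through the single-EAA treatments, where it is high. Like the other named genes, it was picked by its gap in these libraries, so its p-values only describe it. In POS_1 to POS_6 it had 2.52, 0.759, 1.01, 0, 1.68 and 1.40 FPKM. The single-EAA medians ran from 37.6 FPKM in Thr to 69.8 FPKM in Trp, and NEG ran from 48.4 to 107 FPKM. Leu_1 was at 0 and therefore overlapped with POS, and Arg_4 had 12.4 FPKM where the other 5 Arg libraries had between 39.7 and 74.0. The difference from the mean of the 10 was -4.51 (SE 0.35, adjusted p = 9.5e-17 by limma), and the smallest in size of the single comparisons was that with Leu, -3.61 (adjusted p = 0.011 by limma). The pseudocount understates the change of a gene near 0, and with a pseudocount of 0.1 the difference from the mean of the 10 was -5.57.

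ENSBTAG00000017007, with 1972 bp, was low in POS with little spread. Its 6 POS libraries had between 5.23 and 6.98 FPKM. The 60 single-EAA libraries ran from 42.4 FPKM in Leu_1 to 131 FPKM in Lys_4, and NEG from 102 to 125 FPKM, without overlap with POS. The treatment medians were lowest in Arg (73.3 FPKM), His (81.0 FPKM) and Met (82.4 FPKM) and highest in Lys (123 FPKM) and Ile (119 FPKM). The difference from the mean of the 10 was -3.77 (SE 0.10, adjusted p = 4.8e-39 by limma). Arg, the nearest, still differed from POS by -3.35.

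**Figure D3:**
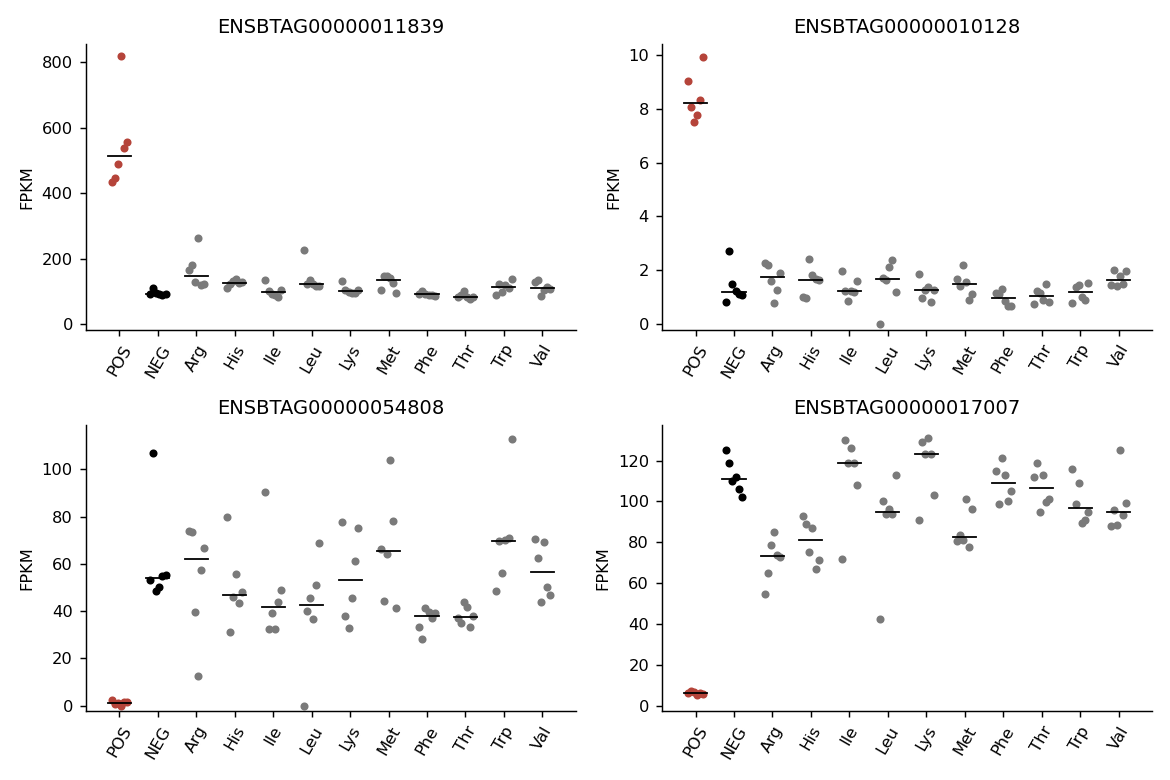
FPKM (y axis, linear) of 4 genes in each of the 6 libraries (points) of POS, NEG and the 10 single-EAA treatments (x axis), with the median as a line. POS stands apart from all other media in each gene, except that Leu_1 and POS_4 are both at 0 for ENSBTAG00000054808.

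Among the genes that no single EAA brought to the POS level, the treatment whose median came closest varied from gene to gene. Of the 268 higher genes, the nearest medium was Thr in 78, Arg in 47, Met in 38, Val in 30 and Phe in 23, and each of the other 5 in at most 15. Of the 415 lower genes, it was Arg in 131, Thr in 90, Leu in 39, Met in 38 and Val in 33. Lys, Ile and Trp were nearest in no more than 10 genes of either class. Without POS_4, Thr was the nearest in 191 of 494 higher and 178 of 611 lower genes, and Arg in 76 and 173. Without Leu_1, Arg_4 and POS_4, Thr was the nearest in 242 of 806 and 186 of 937, and Arg in 187 and 295.

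The distance from POS over these genes also varied between the media. Over the 268 higher genes, the median difference between POS and a treatment ran from 0.78 on the log2 scale in Thr and 0.81 in Arg to 1.03 in Leu. It was 0.80 against NEG. Over the 415 lower genes it ran from -0.95 in Arg and -1.05 in Thr to -1.23 in Val, and was -1.07 against NEG. These medians over genes are a description, and their differences between media were not tested.

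**Figure D4:**
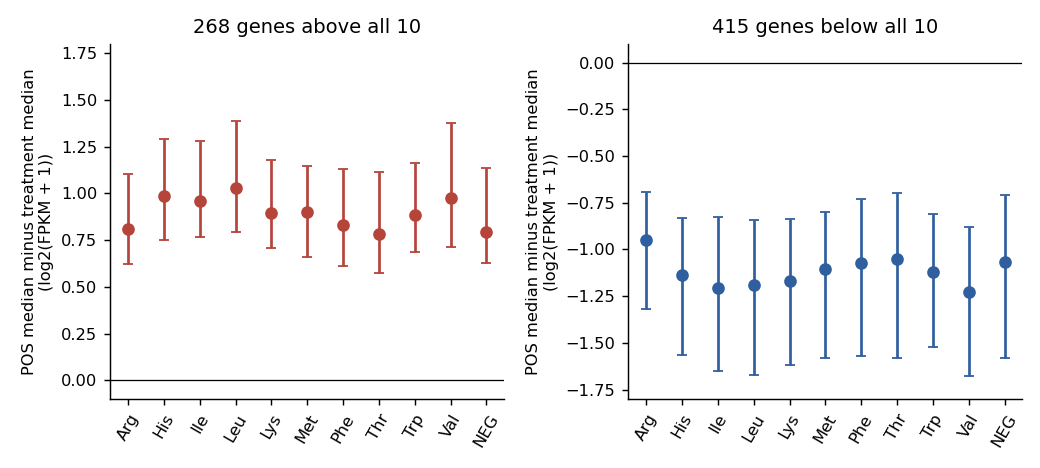
Median difference between the POS median and the treatment median in log2(FPKM + 1) (y axis; bars span the lower to the upper quartile over genes) for each single-EAA treatment and NEG (x axis), in the 268 genes above and the 415 genes below all 10 treatments. The medians run from 0.78 in Thr to 1.03 in Leu on the left and from -0.95 in Arg to -1.23 in Val on the right.

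Part of the genes called against the mean of the 10 had a single-EAA median at or past the POS level, called reached here. A treatment at the POS level itself draws that mean towards POS, so the share reached among larger differences is lowered by construction. Of the 2684 genes called higher in POS than the mean of the 10, 652 had at least 1 treatment median at or above the POS median, and of the 2550 lower genes 576 had one at or below it. In 415 and 372 of them it was 1 treatment alone, and no gene was reached by more than 5. Thr reached the POS level in 228 higher and 191 lower genes and Val in 200 and 177. Leu followed with 137 and 112, Phe with 128 and 82, and Arg with 105 and 97. Met reached 72 and 78 genes and His 41 and 62. Ile with 15 and 17, Lys with 13 and 5, and Trp with 13 and 11 reached the fewest. Without POS_4, 558 higher and 470 lower genes were reached. Thr reached 297 and 234 of them, Phe 158 and 107, Arg 101 and 87, and Val 87 and 78, so the order changed. Without Leu_1, Arg_4 and POS_4 the reached genes were 1078 and 827. Of these, Thr reached 487 and 327, Arg 384 and 197, Phe 290 and 170, and Val 203 and 209. These counts use medians without a test against each treatment, and a median at the POS level does not show equal levels. NEG did not enter them, so a gene counted as reached may have been at the POS level without any EAA.

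Among genes with a fold change over 2, the POS level was reached in 13 of the 210 higher and 13 of the 423 lower genes. The 13 higher genes all had recovered lengths under 200 bp, with a median of 80 bp and of 4 reads per library. With so few reads, the recovered length may be too short by a whole factor, and the levels of these genes are not described further. Val was among the reaching treatments in 8 of these 13, Phe in 3, Thr and Trp in 2 each, and Leu in 1. Of the 13 lower genes, 11 had at least 200 bp and at least 5 FPKM. In 9 of the 11 the reaching treatment was Val alone, in 1 it was Met (2809 bp) and in 1 it was Arg (3655 bp).

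The 9 genes reached by Val rested on widely spread libraries. POS_4 was the lowest POS library and Val_3 the highest Val library in all 9. The largest fold change was that of a gene of 582 bp, with 0 to 8.63 FPKM in POS (median 5.25), 2.75 to 20.9 FPKM in Val (median 3.66) and 23.7 to 31.7 FPKM in NEG. Its difference between POS and Val was -0.31, with a 95% interval from -1.53 to 0.92. In none of the 9 did POS and Val differ by limma, at adjusted p from 0.62 to 0.99, and the intervals are too wide to show equal levels. POS and NEG differed in all 9, against 32.7% of all genes tested, which describes the genes only, since they were chosen as lower in the same POS libraries. Of the 9 other treatments, only 2 to 7 were called apart from POS. In place of the 13 lower genes reached by some treatment, there were 8 without POS_4, 26 without POS_1 and 21 without POS_6.

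A stricter class held the genes in which exactly 1 single-EAA median was at or past the POS level. The other 9 treatments were called apart from POS in the same direction, and NEG did not enter the class. This class was set up after the data were seen. It held 10 genes, of which 5 were reached with Arg, 4 with Met and 1 with Leu, and none with the other 7 EAAs. In 6 of the 10, the libraries of POS and of the reaching treatment did not overlap with the other 54 single-EAA libraries, which the choice of the class favours. Over all genes tested, such a separation was found in 6 genes (0.0495%). Without Leu_1, Arg_4 and POS_4 it was found in 8 of the 10, and in 12 of all genes tested (0.099%). POS was called apart from NEG in 6 of the 10, and in 7 without NEG_2, an alternative added after the data were seen, against 32.7% and 31.4% of all genes tested. This describes the genes only, since they were chosen on the same POS libraries against media with the NEG base. Arg also had the fewest calls against POS, and the part of this in the count was not tested. Without POS_4 the class held 19 genes, 12 of them with Arg, 5 with Met and 2 with Leu, and shared 8 with the 10. Without Leu_1, Arg_4 and POS_4 it held 49, of which 27 were reached with Arg, 11 with Val, 9 with Met and 2 with Leu, and again shared 8.

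The largest difference in this class was that of a gene of 2809 bp, reached with Met. It had between 84.9 and 104 FPKM in POS (median 92.5) and between 50.7 and 67.4 FPKM in Met (median 58.0). The other 54 single-EAA libraries ran from 244 FPKM in Thr_1 to 514 FPKM in Val_4, and NEG ran from 270 to 317 FPKM. Met was therefore not only at the POS level but past it. POS was higher than Met by 0.69 on the log2(FPKM + 1) scale (95% interval 0.47 to 0.90, adjusted p = 0.00026 by limma). Against the other 9 treatments POS was lower, by -1.44 to -2.24, and against NEG by -1.64 (SE 0.10, adjusted p = 2.2e-07 by limma). Between 2225 and 23855 reads per library lay behind these values.

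The corresponding gene for Arg had 3655 bp. It had between 2.63 and 6.68 FPKM in POS (median 4.82) and between 2.85 and 5.96 FPKM in Arg (median 4.10). All other single-EAA libraries were higher, from 8.92 FPKM in Trp_6 to 26.6 FPKM in Leu_2, and NEG ran from 9.10 to 14.6 FPKM. POS and Arg differed by 0.06 (95% interval -0.37 to 0.49, adjusted p = 0.92 by limma). The differences from the other 9 treatments ran from -1.19 to -2.04, and that from NEG was -1.26 (adjusted p = 0.00021 by limma).

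The 3 genes of this class that were higher in POS had smaller differences. A gene of 6684 bp had between 5.51 and 7.19 FPKM in POS and between 5.53 and 7.85 FPKM in Met, with the other 54 libraries from 2.51 to 5.21 FPKM and NEG from 2.73 to 3.98 FPKM. A gene of 2395 bp, also reached with Met, had 90.4 to 124 FPKM in POS, 102 to 124 FPKM in Met and 50.6 to 88.8 FPKM in the other treatments. Its NEG libraries, with 80.1 to 97.7 FPKM, overlapped with POS, while without NEG_2 they reached 91.6 FPKM and without POS_4 POS began at 94.7 FPKM. A gene of 3315 bp, reached with Arg, had 45.7 to 74.1 FPKM in POS, 52.9 to 76.6 FPKM in Arg and 44.5 to 57.7 FPKM in NEG. The other 54 libraries ran from 19.6 FPKM in Ile_1 to 47.4 FPKM in Thr_2, so that the highest of them overlapped with the lowest POS library, which was POS_4. Without POS_4 the lowest POS library had 54.1 FPKM and did not overlap.

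For the gene of 3315 bp, the difference between POS and NEG was 0.31 (adjusted p = 0.093 by limma), and for that of 2395 bp it was 0.24 (adjusted p = 0.12 by limma). In these 2 genes the other 9 single-EAA medians also lay below the NEG median, the highest of them being Thr in both, with 43.4 FPKM against 47.0 FPKM in NEG for the gene of 3315 bp. The gene of 6684 bp differed between POS and NEG by 0.77 (adjusted p = 0.00035 by limma).

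**Figure D5:**
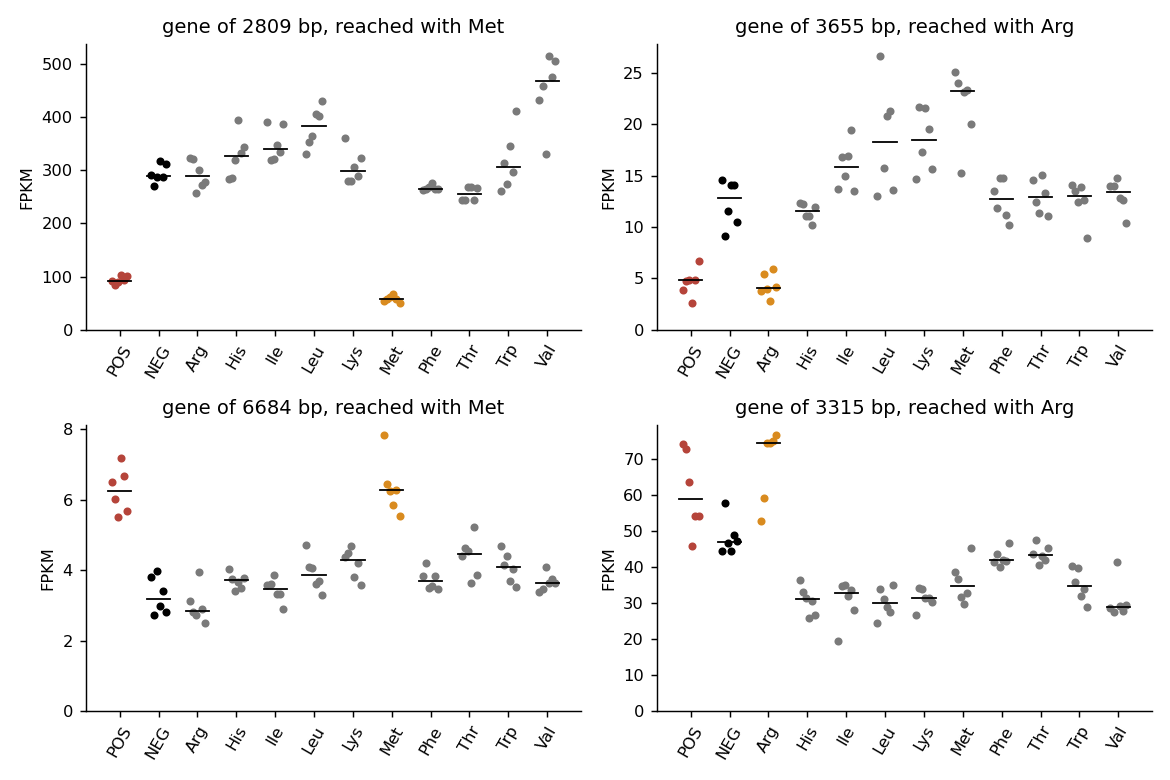
FPKM (y axis, linear) of 4 genes in which the median of 1 single-EAA treatment was at or past the POS median. Points are the 6 libraries of POS, NEG and each of the 10 single-EAA treatments (x axis). Lines are medians, and the reaching treatment is in orange. In the gene of 2809 bp, Met (50.7 to 67.4 FPKM) lies below POS (84.9 to 104 FPKM), and all other single-EAA libraries are at 244 FPKM or more.

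The remaining 5 genes of the class were lower in POS. A gene of 2822 bp had 24.3 to 33.1 FPKM in POS, 13.1 to 33.7 FPKM in Arg and at least 35.6 FPKM in every other treatment. A gene of 2043 bp had 7.43 to 9.86 FPKM in POS, 5.75 to 8.14 FPKM in Met and at least 10.0 FPKM in the others. The gene reached with Leu, of 1456 bp, was at most 0.685 FPKM in POS and 1.08 FPKM in Leu, with at most 75 reads in any library, and its libraries overlapped with those of Ile, Val, Arg and Met. A gene of 10293 bp, reached with Arg, overlapped with the other treatments only through Arg_4 (6.85 FPKM) and POS_4 (4.27 FPKM). Without them POS reached at most 3.51 and Arg at most 3.69 FPKM, below the lowest other library with 3.85 FPKM. POS and NEG did not pass the test in it (adjusted p = 0.85 by limma, and 0.29 without NEG_2, which had 0.842 FPKM). In a gene of 3091 bp, also reached with Arg, POS (9.78 to 12.4 FPKM) overlapped with Ile_1 (10.7 FPKM) and, through POS_4, with Phe_1, and the test between POS and NEG was not passed (adjusted p = 0.51 by limma). Without NEG_2, which had 6.88 FPKM against 12.9 to 14.6 FPKM in the other 5 NEG libraries, POS was lower than NEG by -0.29 (adjusted p = 0.025 by limma). Except for the gene of 2809 bp, POS and the reaching treatment did not differ by limma in any gene of the class, at adjusted p from 0.15 to 0.93.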

How the data were processed

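RNA-seq libraries of BMECs in POS, NEG and the 10 single-EAA media were used, 6 in each treatment, grouped by their labels. The authors deposited FPKM for 29550 genes. The submitters' processing notes name HISAT2 (version 2.0.5), StringTie (version 1.3.3b), featureCounts (version 1.5.0-p3) and DESeq2 (version 1.20.0), while the paper names other counting tools. The build of the genome was not given in the sources used here, and the labels and the paper name different library kits and culture plates.

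Reads and gene lengths were recovered from the deposited FPKM, taking the shortest length at which all values of a gene came within 0.001 of a whole number, so that closeness to whole numbers is a condition and not a check. The recovery was tested on simulated data, where every read count was found for 95.5% of 3774 genes. The library factors behind the FPKM matched median-of-ratios size factors, so a scaling between libraries is already part of the values. PCR copies were not marked, so reads are not independent molecules. Tests were run on log2(FPKM + 1) by limma 3.58.1 in R 4.3.3, using a trended prior, for genes with a mean of at least 1 FPKM over the 72 libraries. Each treatment was compared with POS in a fit of 12 libraries, and the mean of the 10 in 1 fit of 66 libraries. The latter was tested on simulated data of 12121 genes: of 200 genes given a 4-fold change, 99.5% were found with the correct sign, beside 14 false calls. Python (version 3.11.15), numpy (version 2.4.6), pandas (version 2.3.3) and matplotlib (version 3.10.9) were used for the remaining steps.

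Genes, lists and classes were chosen with earlier results of these data known. Named genes were to carry a symbol, and as none was found, the 2 genes with the largest gaps above and the 2 with the largest gaps below all 10 treatments are named by identifier, at a level of at least 5 FPKM and a length of at least 200 bp. Gene lists, cell type markers and promoter motifs were not examined for the same reason, nor their alternatives. Replicates carry the same numbers in all treatments, but no source says that a number marks a shared batch, and the comparisons were not paired. Alternatives were another pseudocount, other filters and scalings, sample weights, voom on recovered reads, a replicate block, libraries left out, 1 common fit and other thresholds.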

Additional observations from a re-analysis of the deposited data

Results flagged for a closer look

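For the 4 named genes, the highest or lowest library of a treatment lay far from the other 5 in 12 of 48 groups of 6, by Dixon's ratio of the gap to the range at its 95% critical value. About 2.4 such groups are expected by chance. ENSBTAG00000011839 had 819 FPKM in POS_4 (next 558), 110 in NEG_2 (next 96.3), 136 in Ile_1 (next 104), 226 in Leu_1 (next 134) and 132 in Lys_1 (next 104). ENSBTAG00000010128 had 2.73 FPKM in NEG_2 (next 1.48). ENSBTAG00000054808 had 107 FPKM in NEG_2 (next 55.3), 90.3 in Ile_1 (next 49.1) and 113 in Trp_6 (next 71.0). ENSBTAG00000017007 had 71.9 FPKM in Ile_1 (next 108), 42.4 in Leu_1 (next 93.6) and 125 in Val_4 (next 99.4). Ile_1 and NEG_2 were each named for 3 of the 4 genes.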

How the results depend on the processing

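Of the alternatives run, 270 values kept their side of every threshold or stayed within 1.5 times of the reported count, and 71 counts moved further. The 4 named genes kept their direction and their call with the other pseudocount, the scalings, the replicate block, sample weights, voom and each set of libraries left out, while the common fit, the treatment means and the other thresholds leave their fold change as it is by construction. Leaving out 1 library at a time (each POS library, Arg_4, Leu_1 or Val_3; the alternatives without Arg_4 alone or Leu_1 alone and the class reached by 1 EAA were added after the data were seen) gave 944 to 2112 genes for POS against Arg, 2794 to 5959 for His, 2611 to 4970 for Ile, 2025 to 4295 for Leu, 2833 to 5224 for Lys, 2178 to 4694 for Met, 3558 to 6060 for Phe, 3798 to 6261 for Thr, 2155 to 4475 for Trp and 2695 to 6070 for Val. Genes that no single EAA brought to the POS level were 186 to 494 higher and 315 to 611 lower, those reached at a fold over 2 were 9 to 14 higher and 8 to 26 lower, and those reached by 1 EAA alone were 8 to 19. The highest values came without POS_4, except 2112 without Arg_4 for Arg, 14 without POS_3 for the higher genes reached, and 26 without POS_1 and 21 without POS_6 for the lower genes reached; the value 8 for these came without POS_4. Without Leu_1, Arg_4 and POS_4 together, the calls were 3692 for Arg, 5959 for His, 4970 for Ile, 6764 for Leu, 5224 for Lys, 4694 for Met, 4475 for Trp and 6070 for Val; 806 higher and 937 lower genes were reached by no single EAA, 6 and 6 were reached at a fold over 2, and 49 by 1 EAA alone, of which 27 with Arg, 11 with Val, 9 with Met and 2 with Leu. Sample weights gave 6787 calls for Arg, 8200 for His, 7541 for Ile, 7490 for Leu, 7610 for Lys, 7754 for Met, 7199 for Phe, 7633 for Thr, 6879 for Trp and 9197 for Val, 4699 higher and 4181 lower genes against the mean of the 10, 1099 higher and 1167 lower genes beyond all 10, 29 lower genes reached and 126 reached by 1 EAA alone. In 1 fit of the 66 libraries, POS differed from Arg in 3503 and from Leu in 5841 genes, with 595 higher and 763 lower genes beyond all 10 and 27 reached by 1 EAA alone. At an unadjusted p under 0.05 and a fold over 2, the calls were 526 for Arg, 825 for His, 839 for Ile, 1209 for Leu, 787 for Lys, 716 for Met, 916 for Phe, 1030 for Thr, 634 for Trp and 973 for Val, with 210 higher and 424 lower against the mean of the 10, 50 and 140 beyond all 10, and 2 reached by 1 EAA alone. With all 6 POS libraries beyond all 60 as the rule, 154 genes were higher and 250 lower. The genes reached at a fold over 2 were 47 lower with a pseudocount of 0.1, 22 higher and 43 lower by voom, and 5 higher and 6 lower with treatment means. A median-of-ratios rescaling changed no count by more than a few genes, since the FPKM already carry it. The causes of these shifts were not tested, apart from the fewer samples or stricter limits that an alternative uses by construction. Depth limits the genes with few reads, whose lengths and levels are uncertain.

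The replicate block gave 1456 genes for POS against Leu, in place of 2757, and 4482 for His, so that Leu had fewer calls than Arg (1721) under it; no other count moved by more than 1.5 times. Correlations of the deviations of same-numbered POS and single-EAA libraries ran from -0.601 to 0.811, and the numbers were not taken to pair the samples.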
